A study of Homo sapiens with 12 samples.

Results

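Silencing of CDK12 in cells with active MycER was described here by comparing the early replicating regions (ERRs) of shCDK12 + OHT with those of shNT + OHT on the 22 autosomes. The 2 lists held 9232 autosomal regions (4556 in shNT + OHT and 4676 in shCDK12 + OHT), of 18185 regions in the 4 lists of the series. Regions were matched when each overlapped exactly 1 region in the opposite list, with an overlap of 1 bp or more, which gave 3089 matched pairs. The density of a region is its reads per base, divided by the median density of its list over the matched regions, so that a relative density of 1 is the typical matched region of that list.

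All cells were U2OS, a human osteosarcoma line, carrying MycER, Myc fused to the ligand-binding domain of the estrogen receptor. Both groups compared received 1 µg/mL doxycycline to induce a short hairpin RNA, either non-targeting (shNT) or against CDK12 (shCDK12), and 300 nM 4-hydroxytamoxifen (OHT) for 40 h to activate MycER. They were arrested for 8 h with 100 ng/mL nocodazole and released for 24 h into 25 µM EdU and 2 mM hydroxyurea. Each group had 3 samples. Nothing states that these came from separate cultures, and no measurement of CDK12 RNA or protein was used here, so the extent of silencing is not known.

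EdU is a thymidine analogue that is built into new DNA, and hydroxyurea limits the supply of deoxynucleotides, so that forks stall close to the origins that fire at the start of S phase. Sequencing of the EdU-labelled DNA (EdU-HU-seq) therefore marks ERRs, which in human cells lie mostly in gene-rich, open chromatin. CDK12 phosphorylates the tail of elongating RNA polymerase II and is best known for keeping up the full-length transcription of long DNA repair genes. Myc is a transcription factor whose activation raises the transcription of many genes and causes replication stress.

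The authors merged the 3 samples of a condition into 1 list. There was thus no replicate error, no difference below could be tested between conditions, and calls are by size alone. The regions held 49994993 reads in shNT + OHT and 28573223 in shCDK12 + OHT. These totals depend on how much was called and are not library sizes. Median raw density in matched regions was 55.3 reads per kb in shNT + OHT and 34.9 in shCDK12 + OHT, a ratio of 0.632. Intervals of a single region's ratio are exact 95% intervals of its counts and cover counting error only, and reads that may include PCR copies are not independent molecules. Intervals of a median are 95% order-statistic intervals over regions, which are not replicates of a condition.

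Most regions were present under both conditions, and the lists differed in how the regions were bounded. The matched pairs made up 67.8% of the shNT + OHT regions and 66.1% of the shCDK12 + OHT regions. A further 591 regions of shNT + OHT were joined into 274 regions of shCDK12 + OHT, whereas 211 regions of shNT + OHT were divided into 462. In 68 groups several regions met several. The autosomal regions covered 487 Mb in shNT + OHT and 547 Mb in shCDK12 + OHT, a ratio of 1.12. Of the difference of 59.3 Mb, matched pairs gave 27.5 Mb, regions of only 1 list 19.6 Mb and joined regions 12.4 Mb, while divided regions took off 2.20 Mb.

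The gaps closed by joining were longer than those opened by division. Joining bridged 317 gaps with a median of 13.6 kb, of which 129 (40.7%) were over 20 kb, and division opened 251 gaps with a median of 7.6 kb, of which 39 (15.5%) were over 20 kb. The longest bridged gap, of 175.6 kb, lay on chromosome 18 (hg19, as all positions here, counted from 1), in a region of shCDK12 + OHT from 2961601 to 3724400 that took in 4 regions of shNT + OHT. On chromosome 4, the region from 40164401 to 40962000 joined 6 regions of shNT + OHT and bridged a gap of 170.4 kb. The converse was largest on chromosome 9, where the shNT + OHT region from 139216801 to 140529600 (318673 reads) was divided into 3 regions with a gap of 82.4 kb.

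The relative densities of matched regions followed each other closely, with a Spearman rho of 0.841 across the 3089 regions (a description across regions of 2 lists, which are not independent). The log2 density ratio (shCDK12 + OHT over shNT + OHT) had quartiles of -0.25 and 0.25 around a median of 0.03, and 90% of pairs lay between -0.68 and 0.56. Past a 1.5-fold change (0.585 on the log2 scale), 128 regions (4.14%) were higher and 238 (7.70%) were lower in shCDK12 + OHT. Past 2-fold, 8 were higher and 52 lower. Counting error was small beside these differences, with intervals that reached a median of 0.08 on the log2 scale to either side. The counting interval lay above 0 in 1328 regions, below 0 in 1194 and across 0 in 567.

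The split of the calls depended on the scaling. Scaled to the 2064 regions matched in all 4 lists, which moved each ratio by 0.06, there were 180 regions higher and 183 lower, so that 49.6% of the calls were higher, against 35.0% with the scaling used here. Scaled to the reads per covered base of each whole list, the ratios moved by 0.31, and 712 regions were higher and 73 lower (90.7% of the calls higher). Directions of density below are therefore relative to the median matched region and say nothing of the absolute amount of EdU.

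**Figure D1:**
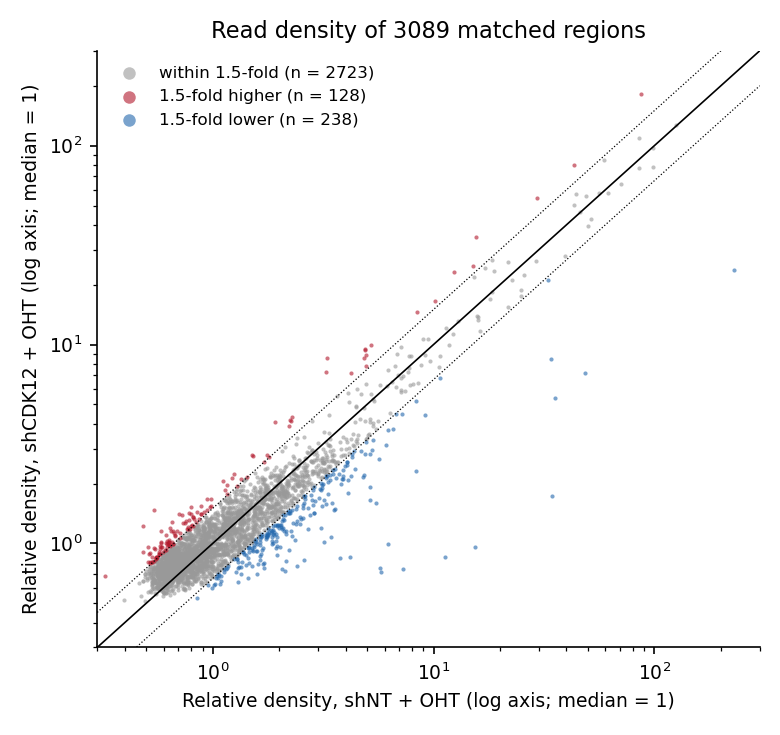
Relative read density of each matched region in shNT + OHT (horizontal) and shCDK12 + OHT (vertical), both on log axes with 1 as the median matched region; dotted lines mark 1.5-fold. The points lie along the diagonal, with 128 above the upper dotted line and 238 below the lower one, and the bulk of the cloud is flatter than the diagonal.

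The range of densities was narrower with CDK12 silenced. The 90th percentile of density was 4.38-fold the 10th in shNT + OHT and 3.18-fold in shCDK12 + OHT. When the pairs were ordered by the mean log2 relative density of both lists and divided into deciles, the median log2 density ratio went from 0.20 in the lowest decile (95% interval 0.16 to 0.23) to 0.00 in decile 6 and -0.27 in the highest (-0.32 to -0.21). In the lowest decile the median relative density was 0.580 in shNT + OHT and 0.670 in shCDK12 + OHT. In the highest decile it was 4.06 and 3.04. None of the 309 regions of the lowest decile was 1.5-fold lower, and 63 of the 309 in the highest decile were. The lowest relative density of any matched region was 0.325 in shNT + OHT and 0.514 in shCDK12 + OHT. Few sparse regions could thus fall 1.5-fold and remain listed, so the count in the lowest decile was largely fixed in advance. The 1st percentiles were 0.524 and 0.589, and how far this raised the ratios of sparse regions was not tested. With the scaling to reads per covered base, the lowest decile was at 0.51 and the highest at 0.04. The sign in the dense regions thus turned. That scaling adds the same 0.31 to every log2 ratio, so the order of the deciles could not change.

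This slope depended in part on the list that ordered the regions. Ordered by density in the shNT list without OHT, which is not a term of the ratio, the 2064 regions matched in all 4 lists went from 0.28 in the lowest decile to -0.29 in the highest. Ordered by the shCDK12 list without OHT, they started at 0.04 (-0.01 to 0.07), rose to 0.12 in decile 4 and fell to -0.20 in the highest (-0.27 to -0.11). The fall in the densest regions was thus seen with each of the 3 orders, and the rise in the sparsest regions was near 0 with the last. When the 1st percentile density of each list was taken off before scaling, a choice made after seeing the data, the highest decile was at -0.13 (-0.20 to -0.03) in place of -0.27.

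**Figure D2:**
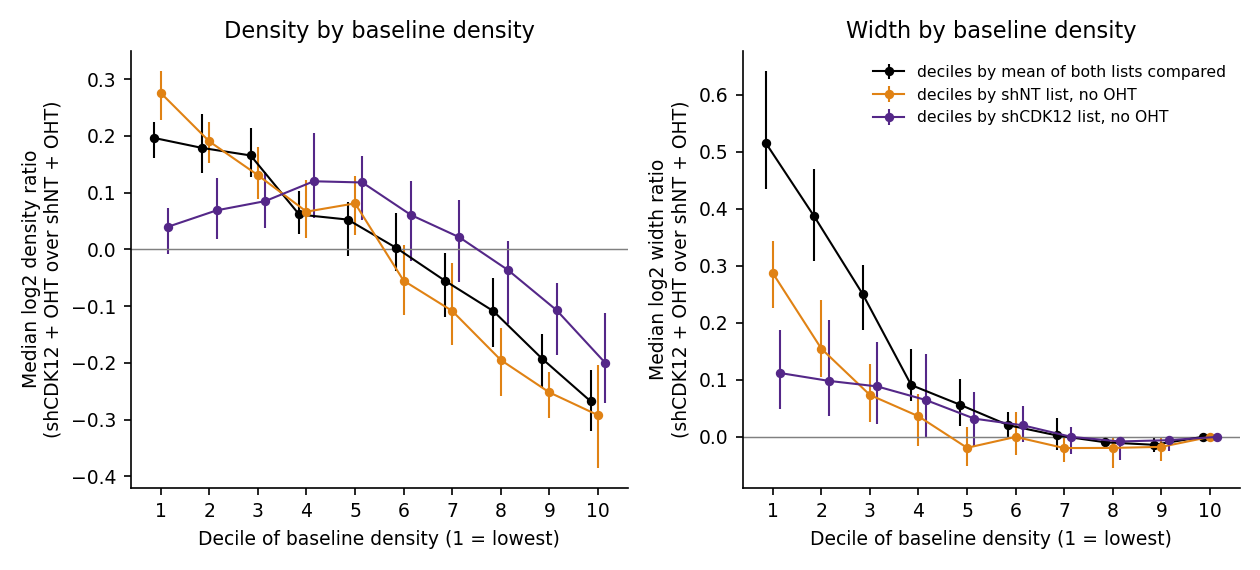
Median log2 ratio of density (left) and width (right), shCDK12 + OHT over shNT + OHT, in deciles of baseline density taken from 3 different sources; bars are 95% order-statistic intervals of the median over regions. The density ratio falls to between -0.20 and -0.29 in the densest decile with each source, and the width ratio is highest in the sparse deciles and 0.00 in the densest.

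Density also differed by the size of the region. The 836 pairs at least 100 kb wide in both lists had a median log2 density ratio of -0.15 (-0.19 to -0.13), and the 981 pairs of 20 to 50 kb in shNT + OHT one of 0.16 (0.13 to 0.18). The 76 pairs at most 2 kb wide in both lists had a median of -0.01 (-0.10 to 0.04), and the 45 pairs with more than 10 times the median density in both lists one of 0.00 (-0.15 to 0.22). The lowest ratio of all, -4.32 on chromosome 8, came from a region of 0.4 kb with 759 reads in shNT + OHT (82754401 to 82754800) that matched a region of 7.2 kb with 433 reads in shCDK12 + OHT. It is named for its value and falls outside the rule for named regions. Of the 52 pairs at least 2-fold lower, 10 were under 20 kb in shNT + OHT and at least 20 kb in shCDK12 + OHT, and 18 were under 20 kb in both. Over all 3089 matched pairs these numbers were 59 and 186. For the 8 pairs at least 2-fold higher they were 0 and 6. The regions named below were at least 20 kb wide with at least 500 reads in both lists, which 2821 pairs met.

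The largest falls in density lay in ERRs that were dense in shNT + OHT. That density is a term of the ratio that picked them, so a dense start was favoured by the selection itself. On chromosome 1, the region from 209509601 to 209622000 held 21248 reads in shNT + OHT (relative density 3.42) and 2804 in shCDK12 + OHT (1.07), a log2 ratio of -1.67 (counting interval -1.73 to -1.61). On chromosome 2, the region from 238001601 to 238262400 fell from 5.14 to 1.91, a log2 ratio of -1.43. It held 33.0% of COL6A3, a chain of collagen VI, in shNT + OHT, and the matched region of shCDK12 + OHT held 72.4%. A region of chromosome 11 from 675201 to 954800 fell from 3.55 to 1.48 (log2 ratio -1.27). It contained CD151, a tetraspanin, EPS8L2, a relative of the actin regulator EPS8, and TALDO1, the transaldolase of the pentose phosphate pathway. These 3 regions were dense in shNT as well, with relative densities of 3.68, 4.80 and 3.15, and lower in shCDK12, with 1.61, 2.23 and 1.44.

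The 5 other regions of the lowest 8 had log2 ratios between -1.39 and -1.19. They overlapped NTM, a neuronal adhesion molecule, on chromosome 11 (131894801 to 131984400), NPAS2, a circadian transcription factor, on chromosome 2 (101304801 to 101450000), PCED1B on chromosome 12 (47621601 to 47712400), and PRKCH, a protein kinase C, with part of the hypoxia factor gene HIF1A on chromosome 14 (61910401 to 62168400). The last, on chromosome 12 (89422401 to 89494800), was given no gene here. The region at PRKCH had the same width of 258 kb in both lists while its reads went from 58497 to 16053, and that at NTM shrank from 89.6 to 27.6 kb. All 8 were also below 0 without OHT, by -1.36 to -0.73.

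Of the 8 largest rises, 6 began below the median density of shNT + OHT, which the selection by ratio likewise favours. On chromosome 10, the region from 75814001 to 75872000 rose from a relative density of 0.540 to 1.47, a log2 ratio of 1.45 (1.37 to 1.52), and widened from 58 to 122.4 kb. It overlapped VCL, the gene of the adhesion protein vinculin. A region of chromosome 2 from 42746401 to 42802800, which overlapped MTA3, a subunit of the NuRD chromatin complex, rose from 0.656 to 1.29 (0.97). The others of the highest 8 lay on chromosome 14 (19806401 to 19826400, 1.34), chromosome 17 (36348401 to 36391600, 1.00), chromosome 20 (31448801 to 31503200, 0.99), chromosome 11 (51567201 to 51593200, 0.94, and 48879201 to 48899600, 0.94) and chromosome 9 (66832801 to 66862800, 0.92). The first region of chromosome 11 was dense in both lists, at 5.207 and 9.997. The regions on chromosomes 9 and 14 and that at 51567201 on chromosome 11 lie in sequence next to a centromere, as general knowledge of the genome has it, where reads can belong to more than 1 copy.

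Matched regions were wider with CDK12 silenced, and the widening came from a minority of large shifts. Of the 3089 pairs, 1754 (56.8%) were wider in shCDK12 + OHT, 1180 narrower and 155 of equal width. The wider pairs gained 40.9 Mb and the narrower ones lost 13.4 Mb. Past 1.5-fold, 533 pairs (17.3%) were wider and 111 (3.59%) narrower. Of the 6178 edges of matched regions, 3070 lay farther out and 2480 farther in. Shifts of up to 10 kb were inward slightly more often than outward in each size class, up to 2 kb, over 2 to 5 kb and over 5 to 10 kb (652 against 669, 627 against 710 and 635 against 672). From over 10 to 20 kb, 495 were outward and 299 inward, from over 20 to 50 kb 474 and 114, and over 50 kb 187 and 16. Left and right edges were alike, with 318 and 343 outward and 66 and 64 inward by over 20 kb.

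**Figure D3:**
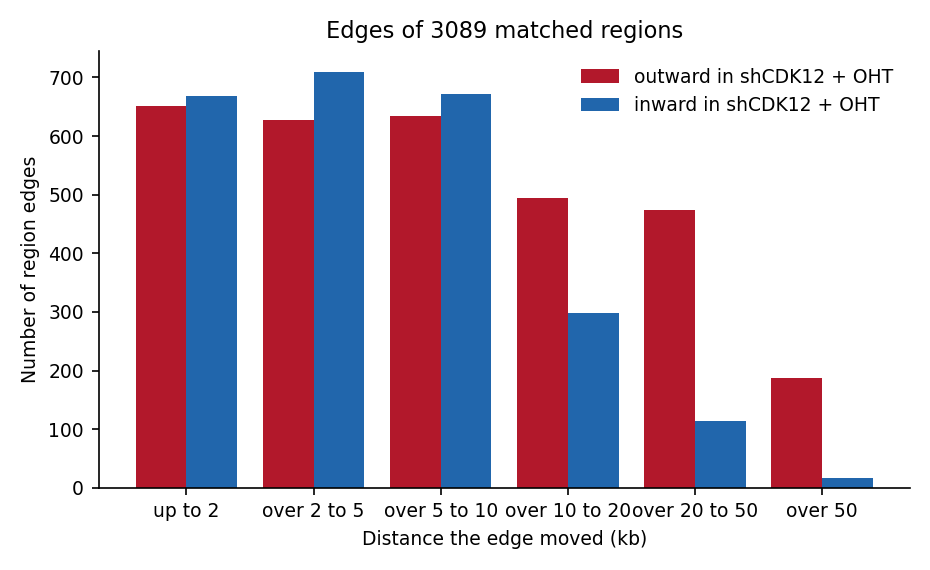
Number of edges of the 3089 matched regions that lay farther out (red) or farther in (blue) in shCDK12 + OHT than in shNT + OHT, by the distance moved in kb. Outward and inward bars are of similar height up to 10 kb, and beyond 50 kb there are 187 outward and 16 inward.

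The regions that widened were sparse ones. The 533 pairs past 1.5-fold wider went from a median width of 34.8 kb to 75.6 kb with silencing, with a median relative density of 0.682 in shNT + OHT. The width in shNT + OHT is a term of the ratio that picked these pairs. A narrow start was thus favoured by the selection itself, against a median of 62 kb over all matched regions. Over these pairs the median log2 density ratio was 0.12 (0.10 to 0.16), so that the wider regions were not sparser in the median. The 111 narrower pairs went from 65.6 to 36.4 kb, with a median relative density of 0.997 in shNT + OHT and a log2 density ratio of -0.21 (-0.32 to -0.13). Their selection likewise favoured a wide start. By deciles of mean density, the median log2 width ratio was 0.52 in the lowest decile (0.43 to 0.64) and 0.00 in the highest. Ordered by the shNT list it was 0.29 in the lowest decile, and by the shCDK12 list 0.11.

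The largest gain of width was at SDK1, a cell adhesion gene on chromosome 7, where the region went from 56.4 kb (3931601 to 3988000) to 360.4 kb (3909601 to 4270000). Its right edge lay 282 kb farther out, and its relative density was 0.879 in shNT + OHT and 0.861 in shCDK12 + OHT. The share of SDK1 inside the region was 5.83% and 37.2%. At SCD5, a fatty acid desaturase gene on chromosome 4, the region went from 54 kb (83689601 to 83743600) to 220.8 kb, and from 18.0% of the gene to all of it, while its relative density fell from 1.31 to 0.764. At KLHL29 on chromosome 2 it went from 72 to 243.6 kb (23697201 to 23940800), and near RYBP, a Polycomb-associated gene of chromosome 3, from 72.8 to 261.6 kb (72492001 to 72753600). The remaining one of the 5 was on chromosome 8, from 138.8 to 326.4 kb (81076001 to 81402400). Of these 5, both edges lay farther out in 4, and at RYBP the left edge lay 1.6 kb farther in.

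Losses of width were smaller. The largest, on chromosome 20, went from 302.8 kb (56521601 to 56824400) to 104.8 kb (56776401 to 56881200), with 16891 and 2254 reads. On chromosome 15, a region went from 231.2 kb (39379201 to 39610400) to 46 kb (39398801 to 39444800), and its relative density from 1.66 to 0.885. The other 3 lay on chromosome 2 (237553601 to 237696800 and 235303201 to 235468800) and chromosome 16 (48970401 to 49077600), with losses that left widths of 36.4, 84 and 28 kb. All 5 also had a lower density, with log2 ratios from -0.91 to -0.32.

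Regions present in only 1 list were sparse in both lists and wider in shCDK12 + OHT. The 510 regions only in shNT + OHT (11.2% of its regions) had a median width of 30 kb and a relative density of 0.659. The 695 only in shCDK12 + OHT (14.9%) were wider, with a median of 47.2 kb and a relative density of 0.669. They held 1.27% and 2.96% of the reads of their lists. When a partner had to share at least 50% of each region, 1385 regions of shNT + OHT and 1505 of shCDK12 + OHT had none. Those of shCDK12 + OHT lay closer to regions of the other list, at a median distance of 86.8 kb against 142 kb, and 13.1% of them against 23.9% were over 500 kb away. Among those at least 20 kb wide, the highest relative density was 1.35 in the first set and 1.37 in the second.

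The lists without OHT held these regions unequally. Of the 695 regions only in shCDK12 + OHT, 236 (34.0%) overlapped a region of shCDK12, 17 (2.45%) one of shNT, and 456 (65.6%) neither. Over all 4676 autosomal regions of shCDK12 + OHT these shares were 84.5%, 72.9% and 13.8%. Of the 510 only in shNT + OHT, 236 (46.3%) overlapped a region of shNT, 141 (27.6%) one of shCDK12, and 227 (44.5%) neither, against 78.8%, 85.6% and 9.77% of all 4556. Since shNT holds 3796 autosomal regions and shCDK12 4799, the shares are not on equal terms.

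Among the 6 widest regions only in shCDK12 + OHT, that on chromosome 12 contained KCNA1, a voltage-gated potassium channel gene, and closed a run of 5 such regions from 4515601 to 5156800. The one on chromosome 3 (185825601 to 186009600, 184 kb, relative density 0.770) overlapped DGKG, a diacylglycerol kinase gene. On chromosome 1, the region from 167390801 to 167561600 contained CD247, the zeta chain of the T cell receptor, and CREG1, a secreted glycoprotein, and was absent from both lists without OHT. On chromosome 8, the region at DEPTOR, an inhibitor of mTOR (120967601 to 121124400, 156.8 kb), was the most isolated of the 6, 988.8 kb from the nearest region of shNT + OHT, and was also present in shCDK12. The other 2 lay on chromosome 7 (97556001 to 97739600) and chromosome 4 (152034401 to 152187600). The regions on chromosomes 3, 7 and 12 also overlapped a region of shCDK12, although the genes DGKG and KCNA1 themselves did not. That on chromosome 4 was absent from both lists without OHT. The longest run, of 7 regions, spanned chromosome 2 from 86544401 to 87593600.

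The 6 widest regions only in shNT + OHT were narrower, from 89.2 to 108.4 kb, and all were present in shNT. On chromosome 19, the region from 54626801 to 54722800 (relative density 0.830) contained CNOT3, a subunit of the CCR4-NOT deadenylase, and MBOAT7, a phospholipid acyltransferase gene, and lay 6 kb from a region of shCDK12 + OHT. On chromosome 10, the region from 80866801 to 80961600 held 38.3% of ZMIZ1, a transcriptional coregulator, another part of which lay in regions of both lists. On chromosome 9, the region from 4218001 to 4312400 overlapped GLIS3, a zinc finger transcription factor gene, at 425.2 kb from the nearest region of shCDK12 + OHT. These 2 were absent from shCDK12 as well. The remaining 3 lay on chromosome 12 and, on chromosome 2, at 234991601 to 235081600 and 218188801 to 218278000. The longest runs, of 5 regions each, lay on chromosome 1 (78714801 to 83506000) and chromosome 12 (89544801 to 93002000).

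No chromosome stood far from the others in density. The median log2 ratio ranged from -0.11 on chromosome 20 (-0.25 to -0.01) to 0.15 on chromosome 15 (0.07 to 0.24), with 16 of 22 above 0. The interval lay above 0 on chromosomes 9 and 15 and below 0 on chromosome 20. That of chromosome 20 took in 0 with a reciprocal overlap of 50%, a width of at least 10 kb or neighbours joined across 10 kb. It also did with either filter on score and with the scaling to regions matched in all 4 lists. That of chromosome 15 took in 0 without the lower quartile of scores and with reads per region. Scaled to reads per covered base, all 22 were above 0. Covered length was higher in shCDK12 + OHT on 21 chromosomes, most on chromosome 18 (ratio 1.29), and lower on chromosome 19 (0.978), where 43.5% of matched regions were wider. Regions only in shCDK12 + OHT outnumbered those only in shNT + OHT on 15 of 22 chromosomes. On chromosomes 8, 10 and 15 they numbered 50, 48 and 34, against 22, 17 and 10. These were 24.6%, 18.75% and 18.0% of the shCDK12 + OHT regions there (14.9% over all autosomes). For shNT + OHT the shares were 11.6%, 7.46% and 5.62% (11.2% over all). On chromosome 6 the shares were 21.1% and 17.1%. On chromosomes 19 and 20 the regions only in shCDK12 + OHT numbered 8 and 9 against 13 and 15. They were also fewer on chromosomes 5, 9, 13, 16 and 21.

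**Figure D4:**
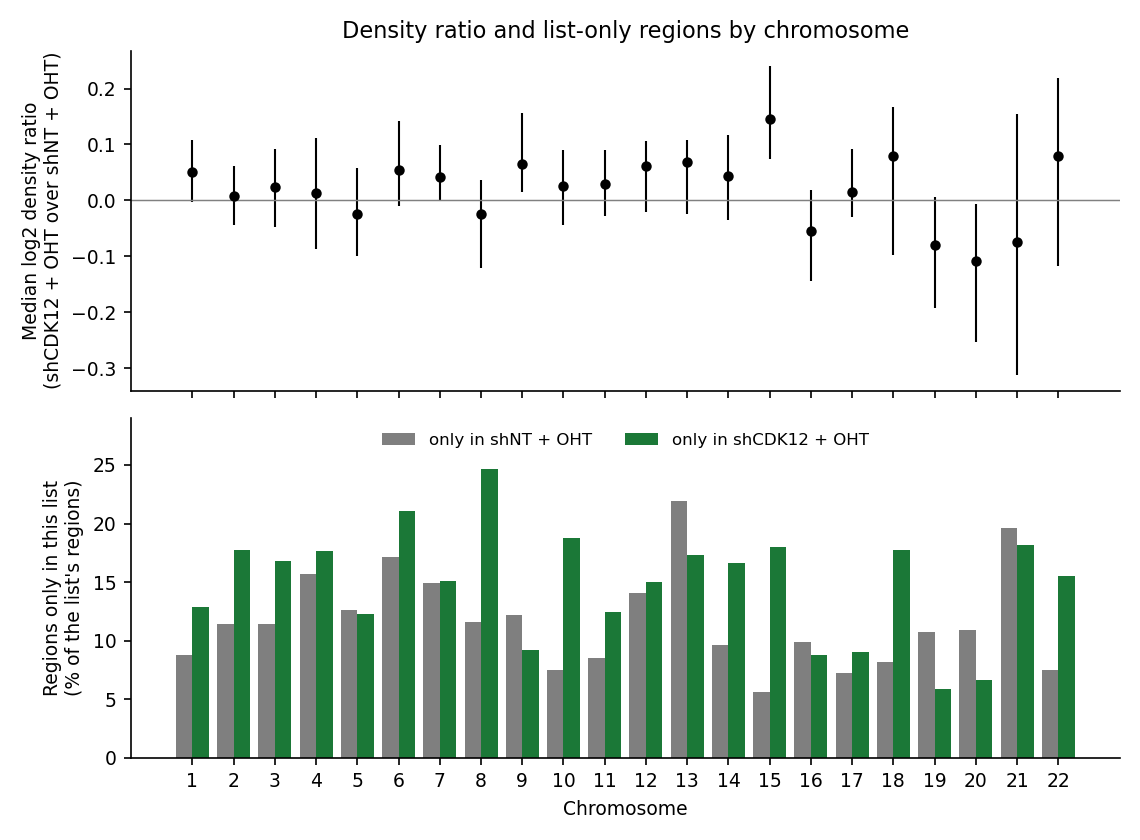
Top, median log2 density ratio of matched regions (shCDK12 + OHT over shNT + OHT) on each autosome, with 95% order-statistic intervals over regions; bottom, regions present in only 1 list as a percentage of that list's regions on the chromosome. Medians lie between -0.11 and 0.15, and on chromosome 8 24.6% of the shCDK12 + OHT regions have no counterpart against 11.6% of the shNT + OHT regions.

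Neighbouring regions resembled each other weakly. The Pearson correlation of the log2 ratio was 0.16 between regions 1 apart on a chromosome (2822 pairs) and 0.02 between regions 5 apart (2734 pairs). These pairs came from a subset of the 3089 matched regions, so that regions left out were skipped between neighbours. Among 302 windows of 5 Mb with at least 5 matched regions, 2 had a median past 1.5-fold higher and none past 1.5-fold lower. Those 2 were on chromosome 9 from 65 to 70 Mb (0.79, 9 regions) and chromosome 21 from 10 to 15 Mb (0.67, 5 regions), followed by chromosome 7 from 60 to 65 Mb (0.52, 6 regions), all next to centromeres. The lowest medians were on chromosome 4 from 75 to 80 Mb (-0.53), chromosome 20 from 60 to 65 Mb (-0.53) and chromosome 21 from 35 to 40 Mb (-0.49). All 6 regions of the chromosome 4 window and all 5 of the chromosome 20 window were below 0. Regions within 5 Mb of the outermost listed base of a chromosome had a median of -0.03 (-0.06 to 0.01, 356 regions), and those farther inside 0.03 (0.01 to 0.05, 2733 regions).

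The same regions were then followed without OHT, where shCDK12 was compared with shNT. The 2 comparisons share no samples, although they share the cell line and hairpins. Across the 2064 regions matched in all 4 lists, the log2 density ratios with and without OHT had a Spearman rho of 0.713 and a Pearson r of 0.504, and 1611 regions (78.1%) had the same sign. Of the 94 of these regions that were 1.5-fold higher with OHT, 84 were above 0 without it and 25 were past 1.5-fold. Of the 150 that were 1.5-fold lower, 131 were below 0 without OHT and 73 past 1.5-fold. Over all 2064 regions, 77 were 1.5-fold higher and 132 were 1.5-fold lower without OHT. The spread of the ratios was similar, with interquartile ranges of 0.49 with OHT and 0.47 without. Ordered by the shNT list, which is then a term of the ratio, the median without OHT went from 0.27 in the lowest decile to -0.19 in the highest. Ordered by the shCDK12 list, also a term of the ratio, it rose from -0.14 in the lowest decile to 0.10 in decile 5 (0.03 to 0.17) and was -0.02 in the highest.

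Width was compared in the same way. Over these 2064 regions, 51.1% were wider in silenced cells with OHT and 33.1% without, and the median log2 width ratios were 0.01 and -0.05. In the lowest decile of density in the shNT list, the median log2 width ratio was 0.29 (0.23 to 0.34) with OHT and -0.05 (-0.11 to 0.01) without. The Spearman rho of the width ratios with and without OHT was 0.323. Whether the effect of silencing on width differs between the conditions could not be tested with 1 list each.

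**Figure D5:**
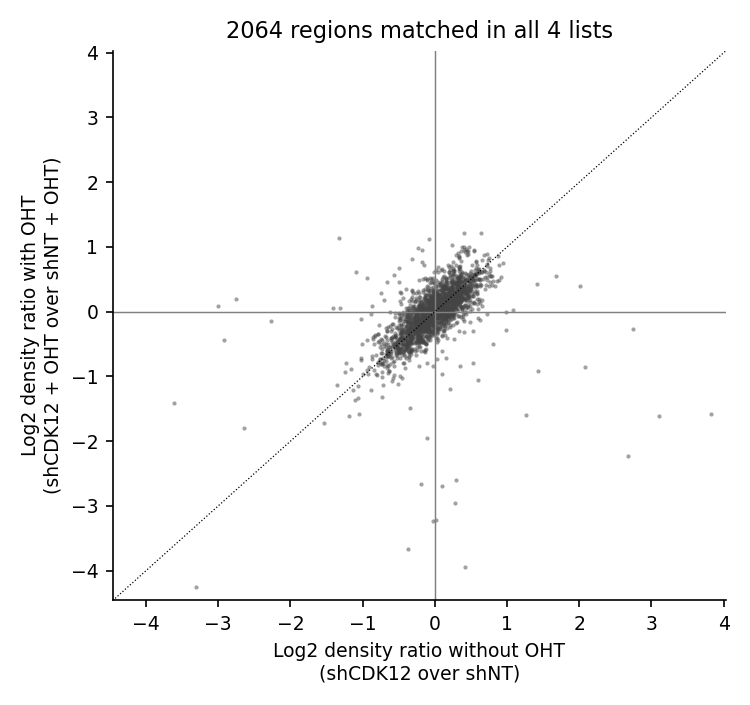
Log2 density ratio of silenced over control cells for the 2064 regions matched in all 4 lists, without OHT (horizontal) and with OHT (vertical); the dotted line marks equal ratios. The cloud runs along the dotted line, 78.1% of the regions have the same sign, and a few points lie far from it in either direction.

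Lastly, fixed groups of genes were looked up in the lists. Their hg19 positions were entered by hand and checked only for chromosome and gene length, and a gene was used when its call did not change with a shift of 20 kb either way, which 28 of 31 met. Of 5 repair genes whose expression is known to rest on CDK12, BRCA1, FANCD2 and FANCI overlapped regions of both lists and ATM and BRCA2 none. Around BRCA1, the shCDK12 + OHT region (chromosome 17, 40516801 to 41568400, relative density 2.28) contained the whole gene and joined regions of shNT + OHT that covered 21.2% of it. FANCD2 was covered by regions over 18.9% in shNT + OHT and 14.7% in shCDK12 + OHT. None of these genes overlapped 1 matched pair and no other region, so no ratio of a matched pair was assigned to them. The region with the largest share of the gene was taken in each list, which need not be the same region. In shNT + OHT and shCDK12 + OHT, its relative density was 2.92 and 2.28 for BRCA1 and 2.90 and 2.31 for FANCD2. For FANCI it was 1.53 and 1.23.

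All 6 Myc target genes used overlapped regions of both lists, 3 of them in matched pairs. Regions covered 28.0% of NPM1 in shNT + OHT and 26.3% in shCDK12 + OHT, and 80.3% of CAD in shCDK12 + OHT. The others were covered whole. NCL, a nucleolar protein gene, lay in a region of chromosome 2 (232210401 to 232614000) that fell from a relative density of 2.63 to 1.73, a log2 ratio of -0.61. LDHA, a lactate dehydrogenase gene, was at -0.66, with a region that widened from 64.4 to 152.8 kb, and NPM1, the gene of nucleophosmin, at 0.31. Of the cell cycle and reference genes, 9 of 10 overlapped regions of both lists and RB1 none. Those in matched pairs, CCND1 (cyclin D1, -0.79) and ACTB (beta-actin, -0.60), were also lower past 1.5-fold. These regions were dense in shNT + OHT, at 1.502 to 6.77 for the 4 genes past 1.5-fold lower, against 7.70% of all matched regions lower past 1.5-fold, and 5 genes in matched pairs are too few to describe their groups.

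CDK12 itself lies partly in an ERR. Regions covered 57.1% of the gene in shNT + OHT and 54.7% in shCDK12 + OHT, and the region with the largest share of it (37.9% and 42.5%; chromosome 17, 37682001 to 37941600 in shNT + OHT) had relative densities of 3.38 and 2.92. Of 3 loci known for mapped origins, LMNB2 and TOP1 overlapped regions of both lists and HBB none. Regions covered 16.9% of TOP1 in shNT + OHT and 11.8% in shCDK12 + OHT. The region of 699.6 kb at LMNB2 in shNT + OHT (chromosome 19, 2203201 to 2902800) was divided in shCDK12 + OHT. FHIT, WWOX and MACROD2, very long genes of common fragile sites, overlapped no region of any of the 4 lists.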

How the data were processed

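EdU-HU-seq of 12 samples (4 conditions of 3) was deposited as 4 lists of regions, 1 per condition, with replicates merged by the authors. Per the deposited files, each region has a whole-number read count, not scaled to library size, and a score, which was used to filter regions only in alternatives, since a common scale of the scores across lists is stated nowhere. The submitters' processing notes name BWA 0.6.2, SAMtools, SICER and the builds hg19 and mm10, without their roles. A control library and duplicate removal are not given in the sources used here. All widths were multiples of 400 bp. Starts were counted from 0 and are printed counted from 1.

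Regions of the autosomes were matched, and densities computed as reads over End - Start + 1. Depth per region, a median of 3182.5 reads in shNT + OHT and 2330.5 in shCDK12 + OHT, sets the counting intervals (exact, 95%). Named regions were the 8 highest and 8 lowest density ratios among pairs of at least 20 kb and 500 reads, the 5 largest gains and 5 largest losses of width, the 6 widest regions of only 1 list, the 3 highest and 3 lowest windows of 5 Mb, and the fixed genes, of which 1 is not reported here. Genes given for named regions were added after the regions were seen, with positions entered by hand, and only those whose length matched the annotation within 5% and whose presence held after a shift of 20 kb were used (the roles of genes are background). The members and lists were chosen with earlier results of these data known. Alternatives covered the overlap rule, filters, joining, scaling, width and baseline. Functions were checked on simulated data. No sequence is printed, because the genome at hand was hg38. Scripts ran under Python 3.11.15 with scipy 1.17.1, pandas 2.3.3, numpy 2.4.6 and matplotlib 3.10.9.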

Additional observations from a re-analysis of the deposited data

Results flagged for a closer look

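Over the 2064 regions matched in all 4 lists, silencing moved the median width in opposite directions, with a log2 width ratio of 0.00829 with OHT and -0.0531 without. The difference was not tested, since each condition has 1 merged list.

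Chromosome X was outside the comparison and is singled out because its regions held reads far above 0, 440065 in shNT + OHT and 202958 in shCDK12 + OHT. It had 87 and 73 regions over 6.24 and 5.49 Mb, so that, unlike on 21 of 22 autosomes, less was covered with CDK12 silenced. Of these, 24 were only in shNT + OHT and 6 only in shCDK12 + OHT. The 50 matched regions had a median log2 density ratio of 0.04 (-0.12 to 0.18) on the autosomal scale and a median log2 width ratio of 0.00.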

How the results depend on the processing

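No paired analysis was possible because the replicates that share numbers in the labels were merged into 1 list per condition. For the same reason no replicate could be left out. Of 120 values under 19 alternatives, 93 kept within the limits set for them, 26 moved and 1 reversed. These limits were broad. With a common lowest score, regions only in shNT + OHT went from 510 to 393 and still counted as kept. Those only in shCDK12 + OHT went from 695 to 846, also counted as kept. Some of the 93 could hardly move. Rescaling left the difference of the lowest and highest deciles at 0.46 by construction. Width as End - Start left the median log2 width ratio at 0.043. The tally is thus no measure of robustness. The reversal was the median of chromosome 20, which went from -0.11 to 0.20 when scaled to reads per covered base. With that scaling the median of chromosome 15 was 0.46, with 712 regions higher and 73 lower. With reads per region in place of density, 541 were higher and 566 lower, the lowest decile exceeded the highest by 0.97 (0.46 as reported), and chromosome 20 was at -0.30. A reciprocal overlap of 50% lowered the median log2 width ratio from 0.043 to 0.017, left 168 regions narrower, and counted 1385 regions of shNT + OHT and 1505 of shCDK12 + OHT without a partner. Without the lower quartile of scores, the width ratio was 0.015, with 302 regions wider and 71 narrower. At 5/4-fold, 600 regions were higher, 617 lower, 860 wider and 272 narrower; at 2-fold, 8, 52, 267 and 32. The difference of the deciles was 0.57 ordered by shNT and 0.24 by shCDK12. Among regions at least 10 kb wide in every list, chosen after seeing the data, the rho with and without OHT was 0.773, and the densest decile with the 1st percentile density taken off was at -0.13. Filters on width, reads and a common lowest score, joining across 10 kb, adding chromosome X, leaving out the densest 1% and centring each chromosome moved none of the values computed for them past those limits. With the filters on width and common lowest score and with joining, the interval of chromosome 20 nonetheless took in 0. Regions held a median of 2330.5 or more reads, so counting error was small, and the spread between replicates is not known.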
